A study of Homo sapiens and Mus musculus and synthetic construct with 31 samples.

Results

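The comparison described here set 2 tiles of the same human transcription start site (TSS) against each other in human embryonic stem cells (hESCs). Tile 1 covered the annotated TSS, beginning 114 bp before it and ending 30 bp after it. Tile 2 lay upstream, from 228 bp to 84 bp before the TSS, so that the tiles were 144 bp each and shared 30 bp. All human TSSs whose 2 tiles were both measured were taken, which gave 2608 TSSs of the 3335 designed with both tiles. Of the others, 215 were measured in tile 1 alone, 294 in tile 2 alone and 218 in neither, and these are not described further. The index of the library lists 15156 sequences in all, among them random sequences that served as negative controls, of which 1604 were measured.

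The study compared promoters and enhancers between human and mouse with a massively parallel reporter assay (MPRA), in which each designed sequence is cloned in front of a GFP reporter whose RNA carries a barcode. Each TSS sequence had 13 barcodes and each random sequence 3. The library was transfected transiently into HUES64, 1 hESC line grown without feeder cells in mTeSR1, a defined medium for human pluripotent cells, at 3 passages with 3 transfections each. The passages are the replicates and transfections within a passage were added together. The labels give no genotype change for these cells. The same plasmid library was also transfected into mouse ESCs (mESCs) of blastocyst origin, which grew in 2i, a medium with kinase inhibitors, with 3 passages of 1 transfection, and sequenced before transfection as 1 plasmid DNA library that every activity below is divided by. All values in hESCs and mESCs therefore share 1 set of DNA counts.

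Transcription by RNA polymerase II begins in the core promoter, the stretch around the TSS on which the general transcription factors assemble. Most of what positions the start, such as the TATA box or the initiator, lies very close to the TSS. Sequence-specific activators such as ETS factors, SP and KLF factors, NRF1 and NF-Y bind mostly within the proximal promoter just upstream. The TSSs of the library come from FANTOM5, an atlas made with CAGE, which sequences the capped 5′ ends of RNAs. Many promoters use a cluster of start positions rather than a single base, and many start RNAs in both directions. A tile in a plasmid carries only its own 144 bp of the locus, without its chromatin or distal elements. The study describes cloning both with and without a minimal promoter, and the sample titles do not say which was used.

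The sequences of 6 loci are shown first, since they are the 3 loci with the largest difference between tiles in each direction among the named genes. In each, the bases in capitals are exact matches to 1 of 10 motifs searched on both strands, and all others are in lower case. The sequences read 5′ to 3′ in the direction of transcription, and positions are on hg19. In the first 3 loci tile 1 was the more active tile. *DPH5* encodes a methyltransferase of diphthamide synthesis, *RANBP6* a protein of the importin family and *TTC17* a protein with tetratricopeptide repeats.
DPH5 tile 1, chr1:101491310-101491453, minus strand: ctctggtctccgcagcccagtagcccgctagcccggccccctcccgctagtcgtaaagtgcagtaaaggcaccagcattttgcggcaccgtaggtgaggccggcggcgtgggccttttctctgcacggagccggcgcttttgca
DPH5 tile 2, chr1:101491424-101491567, minus strand: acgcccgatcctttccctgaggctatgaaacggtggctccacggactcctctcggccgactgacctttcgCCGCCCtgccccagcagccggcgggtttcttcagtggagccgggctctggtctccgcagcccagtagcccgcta
RANBP6 tile 1, chr9:6015585-6015728, minus strand: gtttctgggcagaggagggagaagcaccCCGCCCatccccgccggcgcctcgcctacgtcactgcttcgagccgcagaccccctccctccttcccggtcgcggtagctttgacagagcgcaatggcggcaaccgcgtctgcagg
RANBP6 tile 2, chr9:6015699-6015842, minus strand: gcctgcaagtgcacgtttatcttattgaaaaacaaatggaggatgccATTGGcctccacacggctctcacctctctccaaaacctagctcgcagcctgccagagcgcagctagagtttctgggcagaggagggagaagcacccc
TTC17 tile 1, chr11:43380380-43380523, plus strand: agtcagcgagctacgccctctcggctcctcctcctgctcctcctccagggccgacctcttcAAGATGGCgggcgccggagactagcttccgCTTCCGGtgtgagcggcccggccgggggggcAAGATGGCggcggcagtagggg
TTC17 tile 2, chr11:43380266-43380409, plus strand: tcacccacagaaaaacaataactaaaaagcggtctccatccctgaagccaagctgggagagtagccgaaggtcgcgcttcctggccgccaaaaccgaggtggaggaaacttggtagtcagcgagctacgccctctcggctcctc

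In the other 3 loci tile 2 was the more active tile. *MIR3677HG* and *MIR4435-2HG* are lncRNA genes that host a microRNA, and *YIPF3* encodes a membrane protein of the Golgi.
MIR3677HG tile 1, chr16:2318216-2318359, plus strand: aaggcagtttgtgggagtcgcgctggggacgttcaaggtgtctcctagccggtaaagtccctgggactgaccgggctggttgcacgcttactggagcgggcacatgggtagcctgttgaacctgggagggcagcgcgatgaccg
MIR3677HG tile 2, chr16:2318102-2318245, plus strand: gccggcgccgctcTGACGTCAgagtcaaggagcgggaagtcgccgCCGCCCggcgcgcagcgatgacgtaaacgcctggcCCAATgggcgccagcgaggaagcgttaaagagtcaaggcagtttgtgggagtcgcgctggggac
MIR4435-2HG tile 1, chr2:112252535-112252678, minus strand: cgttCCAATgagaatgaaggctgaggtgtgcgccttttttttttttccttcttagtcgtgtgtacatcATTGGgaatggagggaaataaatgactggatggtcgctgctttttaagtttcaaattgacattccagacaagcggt
MIR4435-2HG tile 2, chr2:112252649-112252792, minus strand: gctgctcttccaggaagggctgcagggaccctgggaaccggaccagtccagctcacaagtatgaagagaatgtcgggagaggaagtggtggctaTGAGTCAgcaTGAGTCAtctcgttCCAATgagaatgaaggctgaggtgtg
YIPF3 tile 1, chr6:43484515-43484658, minus strand: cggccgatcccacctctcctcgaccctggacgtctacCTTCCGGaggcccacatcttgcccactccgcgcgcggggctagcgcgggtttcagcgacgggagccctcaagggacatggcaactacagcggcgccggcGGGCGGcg
YIPF3 tile 2, chr6:43484629-43484772, minus strand: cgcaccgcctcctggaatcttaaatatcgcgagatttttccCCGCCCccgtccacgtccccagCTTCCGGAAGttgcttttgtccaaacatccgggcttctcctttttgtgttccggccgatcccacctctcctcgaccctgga

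To obtain an activity, the RNA counts of a tile's barcodes were added up, divided by their added DNA counts and scaled to the median random sequence, so that 1 is the level of a typical random sequence. The passages held 240542933 to 339240801 reads of counted barcodes each, and a tile had a median of 12 barcodes that passed the DNA filter. The median RNA count per passage was 8697 to 12651 for tile 1 and 6395 to 9612 for tile 2. The 3 libraries of passage 1 stood apart. Over TSS sequences they correlated with each other with a Spearman's rho of 0.749 to 0.759 and with the other libraries with 0.792 to 0.833, whereas pairs of libraries from passages 2 and 3 had 0.883 to 0.906. Without passage 1, the counts of called TSSs given below were 700 and 227 in place of 704 and 224. In RNA-seq of untransfected hESCs, *LIN28A* was at 1920 to 2210 cpm, that is, counts scaled to a library total of 1000000, *SOX2* at 255 to 350 and *POU5F1* at 64.3 to 71.1, while *SOX17* was at 0 in all 3 libraries and *GATA4* at no more than 0.0488. *FOXA2* was at 0.537 to 1.18. Of 3 fibroblast markers, the collagen genes *COL1A1* and *COL1A2* were at 87.8 to 138 and 69.0 to 81.1 cpm and *DCN* at no more than 0.0454, and their part in the results was not tested.

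Tile 1 was on the whole the more active tile. Its median activity was 1.62, with quartiles of 1.10 and 3.63, and that of tile 2 was 1.24, with quartiles of 0.974 and 2.02. The upper ends differed more than the middles. The 95th percentile was 12.4 for tile 1 and 7.31 for tile 2, and the highest activity was 44.8 and 33.5, respectively. Tile 1 had the higher activity at 1672 TSSs, which is 64.1% (95% exact binomial interval 62.2% to 65.9%, over TSSs that partly overlap and so are not independent), and tile 2 at 936. Per passage, the share was 63.6%, 65.6% and 64.6%, or 64.6% ± 1.03 (SD, n = 3). The median log2 ratio of tile 1 to tile 2 was 0.32 over all passages, and 0.33, 0.35 and 0.33 in the passages taken singly.

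Whether a TSS had unequal tiles was tested with edgeR's quasi-likelihood test over the 3 passages, and a TSS was called at a Benjamini-Hochberg adjusted p under 0.05 and a difference of at least 2-fold. Of the 2608 human TSSs, tile 1 was called higher at 704 (27.0%) and tile 2 at 224 (8.59%). Over all 5233 human and mouse TSSs in the fit, the shares were 28.5% and 8.27%. The calls covered a wide range of sizes. Tile 1 was at least 4-fold higher at 295 of the called TSSs, at least 8-fold at 120 and at least 16-fold at 33, while tile 2 reached these folds at 79, 24 and 3. The 3 passages of the tiles did not overlap at 926 of the 928 called TSSs, where 50.2% of all 5233 TSSs had non-overlapping passages with the higher tile 1 and 21.2% with the higher tile 2. A fit on the spread between barcodes of a tile in place of passages called 29.5% and 8.83% of all TSSs, and 595 and 182 human TSSs were called in the same direction in both fits.

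The random sequences divide the TSSs in another way, since 95% of them had an activity under 2.05. Neither tile passed this level at 1345 TSSs, and only 51 and 23 of these were called for tile 1 and tile 2. Tile 1 alone passed it at 626 TSSs, tile 2 alone at 208 and both at 429. Where both tiles passed it, the median activity was 5.42 for tile 1 and 4.06 for tile 2, and 123 and 54 TSSs were called. These classes were set by the same activities that the fold change compares, so the counts describe how the calls are distributed and are no test. The random sequences had fewer barcodes than the TSS tiles, which widens their spread.

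*DPH5* (ENSG00000117543) had the largest difference. Its tile 1 had activities of 37.05, 40.8 and 47.4 in the 3 passages and its tile 2 of 1.00, 1.04 and 1.11. Tile 1 thus stood far above random sequence in every passage and tile 2 at its level. The log2 ratio was 5.31 ± 0.15 (SE; adjusted p = 1.27e-12, edgeR). Both tiles overlap an exon of *DPH5* and, on the other strand, of *DPH5-DT*. As printed above, tile 1 has none of the 10 motifs, while the inactive tile 2 has an SP/KLF match. *RANBP6* was nearly as unequal, with 41.9, 43.5 and 49.0 for tile 1, which overlaps its exon, and 1.12, 1.11 and 1.27 for the intergenic tile 2 (log2 ratio 5.27 ± 0.14, SE). *TTC17* had 30.2, 33.6 and 37.9 against 1.02, 0.925 and 0.995 (log2 ratio 5.11 ± 0.14, SE), with 2 YY1 matches and 1 ETS match in tile 1 and none of the motifs in tile 2.

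The remaining loci of the 10 named for the largest differences in this direction were again near 1 in tile 2. *MAPKAPK5*, a kinase of the MAP kinase pathway, had a mean of 29.5 ± 3.46 (SD, n = 3) in tile 1 and 1.14 ± 0.0695 in tile 2. *UXT*, which encodes a prefoldin-like chaperone protein, had 30.5 ± 1.11 and 1.19 ± 0.0963. The lncRNA *LNCTAM34A*, which lies opposite the host gene of miR-34a, had 29.8 ± 3.64 and 1.26 ± 0.112. These 3 were high in tile 1 to a similar degree, and the passages of their tiles did not overlap. *TMEM167B-DT* had 15.9 ± 1.10 against 0.658 ± 0.214, and the lncRNA ENSG00000264451 had 23.5 ± 2.86 against 1.10 ± 0.195. *SEC22B*, a SNARE protein of transport between the endoplasmic reticulum and Golgi, had 22.2, 23.1 and 26.0 in tile 1 and 1.38, 1.37 and 1.34 in tile 2, a log2 ratio of 4.12 ± 0.12 (SE). The antisense lncRNA *BCAR3-AS1*, which lies in an intron of *BCAR3* on the other strand, had the same log2 ratio of 4.12 ± 0.21 (SE) from lower levels and with more spread, 15.6, 9.81 and 11.3 in tile 1 and 0.867, 0.632 and 0.618 in tile 2.

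*MIR3677HG* (ENSG00000260778) had the largest difference in favour of tile 2. Tile 1 had activities of 1.07, 1.03 and 1.20, and tile 2 of 26.7, 25.1 and 28.4. Here the tile over the TSS was at the level of random sequence in every passage and the upstream tile lay above the 95th percentile of either tile. The log2 ratio was -4.60 ± 0.13 (SE; adjusted p = 1.27e-12, edgeR). The nearest annotated transcript start of the gene was 174 bp from the TSS used, and 1 start of the same strand and 4 of the opposite strand lay inside tile 2. Both tiles overlap exons of *MIR3677HG* and of *RNPS1*, which runs the other way. *YIPF3* had 1.68, 1.58 and 1.40 in tile 1 and 16.4, 18.5 and 20.3 in tile 2 (log2 ratio -3.57 ± 0.14, SE). It too had annotated starts in tile 2, 9 of them, and its nearest start was 113 bp away. Some other loci with the higher tile 2 had a start close to the TSS used, 1 bp away at *MIR4435-2HG*, 3 bp at *OLMALINC*, 29 bp at *AIMP2*, 30 bp at *RAB30* and 33 bp at ENSG00000272769. The nearest start was farther away at the rest, 55 bp at *MCMBP*, 153 bp at *PPP1R8* and 155 bp at *LINC02427*. Both tiles of *YIPF3* have an SP/KLF match, its tile 1 has 1 ETS match and its tile 2 has 2 that overlap in 1 palindrome.

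Of the others with the higher tile 2, *OLMALINC*, a lncRNA, had 1.28, 1.42 and 1.37 in tile 1 and 18.1, 10.3 and 16.1 in tile 2, with passage 2 below the other passages. *AIMP2*, a subunit of the aminoacyl-tRNA synthetase complex, had 0.926 ± 0.145 (SD, n = 3) against 9.90 ± 0.997. Its tile 2 reaches an exon of *PMS2* on the other strand and has a CREB/ATF match. *MCMBP*, a binding partner of the MCM helicase, had 0.902 ± 0.0564 against 9.54 ± 0.637, and its tile 2 overlaps an exon of *SEC23IP* on the other strand. *RAB30*, a small GTPase of the Golgi, had 1.08 ± 0.0802 against 9.31 ± 0.758, *PPP1R8*, a nuclear inhibitor of protein phosphatase 1, had 1.43 ± 0.0312 against 12.0 ± 0.463, *LINC02427* had 1.79 ± 0.0627 against 15.1 ± 1.82 and the lncRNA ENSG00000272769 had 1.25 ± 0.0374 against 12.5 ± 0.457. Of the 10 loci named for the largest differences in favour of tile 2, only *MCMBP* and ENSG00000272769 had no annotated start of the same strand inside tile 2. Each of these had 1 or more on the opposite strand. Over all 2608 human TSSs, 339 had a start of the same strand inside tile 2 and 420 one of the opposite strand. Naming had further filters, given below, so a large ratio such as that of *MRPL3* could be left out.

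*MIR4435-2HG*, the host gene of miR-4435-2, was among the 10 named for the largest differences in both directions. Several of its TSSs were in the library, and their tiles step across the same stretch of chromosome 2. The 14 measured sequences there cover positions 112252418 to 112252965. 5 of them had activities of 9.54 to 23.6 and the other 9 of 0.694 to 1.94, with nothing in between. The active sequences were 3 upstream tiles and 2 TSS tiles, and all of them contain the stretch from 112252649 to 112252731, which is 83 bp long. The split into active and inactive sequences was made after their values were seen. The same DNA was therefore a more active tile 1 for 2 TSSs and a more active tile 2 for 3 others. Each of the 5 active sequences holds the 2 AP-1 matches that are printed above in tile 2 of the TSS, and the other 9 hold none, whereas CCAAT box matches occur in both kinds. The TSS with the largest ratio had 20.9, 22.9 and 27.0 in tile 1 and 0.516, 1.09 and 0.861 in tile 2 (log2 ratio 4.85 ± 0.29, SE), and the one printed above had 0.520, 0.836 and 0.726 in tile 1 and 12.3, 15.1 and 15.2 in tile 2 (log2 ratio -4.36 ± 0.18, SE). The 14 sequences overlap and are not independent measurements. At *MIR205HG* too, tile 1 of a TSS overlaps tile 2 of another, and the log2 ratios of these TSSs were 3.23 ± 0.12 and -2.64 ± 0.12 (SE).

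Elsewhere too, overlapping sequences of 1 strand tended to have like activities, though overlapping tiles 1 of *SNHG30* had 6.83 and 1.16. Between tile 1 and tile 2 of a TSS, which share only 30 bp, Spearman's rho was 0.397. Pairs of human sequences shifted by 1 to 20 bp differed by a median of 0.26 on the log2 scale (132 pairs, Spearman's rho 0.884), pairs shifted by 21 to 40 bp by 0.37 (294 pairs, rho 0.785) and pairs shifted by 41 to 60 bp by 0.41 (230 pairs, rho 0.692). The 2608 TSSs form 1861 clusters of overlapping tiles, 1222 of which are a single TSS.

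The share of called TSSs varied between kinds of RNA. The study's list of TSSs names the kind for part of them. Among 449 mRNA TSSs, 187 were called for tile 1 and 57 for tile 2 (41.7% and 12.7%), with median activities of 3.11 and 1.65. Among 594 lncRNA TSSs the counts were 182 and 47, with medians of 2.08 and 1.37. Enhancer RNA TSSs were lower in both tiles, at 1.36 and 1.10, and had 72 and 16 calls among 341. mRNA TSSs thus had a larger share of calls than all TSSs (27.0% and 8.59%) in both directions, and enhancer RNAs a smaller one. The 1038 TSSs that the list used here does not name had 209 and 83 calls. By GENCODE gene type, 312 and 88 of 824 TSSs of protein-coding genes were called, 239 and 72 of 818 of lncRNA genes, and 150 and 61 of the 937 TSSs without a gene start of the same strand within 1000 bp.

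The calls also divided by where annotated transcripts begin. Where a GENCODE transcript began within 20 bp of the TSS and none began inside tile 2, tile 1 was called at 275 of 589 TSSs and tile 2 at 44, and the median log2 ratio was 0.93. Where one began inside tile 2 and none within 20 bp of the TSS, the order turned, with 25 calls for tile 1 and 60 for tile 2 among 213 TSSs and a median of -0.20. With starts at both places the counts were 44 and 20 of 126, and with neither they were 360 and 100 of 1680. A further library TSS of the same strand inside tile 2 went with 11 calls for tile 1 and 34 for tile 2 among 128 TSSs (median -0.25), which fell to 4 and 15 of 49 with 1 TSS per cluster. Starts of the opposite strand inside tile 2 went with more calls of both kinds, 184 and 59 of 420, and with higher activity of both tiles. The median was 4.44 for tile 1 and 2.18 for tile 2, against 1.46 and 1.17 for the TSSs without them.

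Base composition also moved with the difference. The log2 ratio had a Spearman's rho of 0.168 with the GC difference between the tiles and of 0.255 with the difference in CpG dinucleotides, over the 2608 TSSs, which are not independent. Tile 1 had a median GC content of 58.3% and 6 CpGs and tile 2 of 56.2% and 5. Where tile 1 had at least 6 CpGs more than tile 2, 131 TSSs were called for tile 1 and 18 for tile 2 among 309. Where it had at least 6 fewer, the counts were 16 and 26 of 115. Between 1314 TSSs whose tiles differed by less than 5 percentage points of GC, 342 and 116 were called when fitted alone, which is a like balance to that of all TSSs. The part of GC and CpG content in the results on motifs and annotated starts was not tested.

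The 10 motifs were searched as exact letters on both strands, and no motif contains another. They were the TATA box (TATAAA), the CCAAT box bound by NF-Y (CCAAT), the ETS motif (CCGGAAG), the GC box of SP and KLF factors (GGGCGG), and those of NRF1 (GCGCATGC), YY1 (AAGATGGC), CREB and ATF factors (TGACGTCA), AP-1 (TGAGTCA), E-box factors (CACGTG) and POU factors (ATGCAAAT). ETS matches were in 6.63% of tiles 1, 4.14% of tiles 2 and 1.56% of random sequences, and SP/KLF matches in 27.2%, 21.6% and 6.61%. TATA box matches were no more frequent in TSS tiles, at 4.41%, 4.29% and 6.17%, and neither were CCAAT matches, at 21.2%, 19.98% and 22.6%. The rarer motifs were in 1.76%, 1.15% and 0.436% for NRF1, 1.53%, 1.15% and 0.312% for YY1, 1.19%, 0.613% and 0.187% for CREB/ATF, 4.91%, 3.07% and 2.00% for AP-1, 4.18%, 3.26% and 3.24% for the E-box, and 0.959%, 1.03% and 0.187% for the POU octamer. All these shares are unadjusted for base composition, so they do not test whether a motif is enriched or depleted.

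For several motifs, the tile that held the match was called more often. These counts stand beside 27.0% and 8.59% of all human TSSs. With an ETS match in tile 1 alone, 96 of 146 TSSs were called for tile 1 and 5 for tile 2, and the median activities were 7.14 and 1.502. With the match in tile 2 alone, the counts were 14 and 27 of 81, and the medians 2.65 and 3.41. With no ETS match in either tile they were 584 and 188 of 2354. The same turn was seen for CREB/ATF, with 21 and 0 of 29 for tile 1 and 3 and 8 of 14 for tile 2. It was seen for YY1, with 23 and 3 of 34 and then 2 and 8 of 24, and for AP-1, with 33 and 2 of 103 and then 4 and 16 of 55. Some of these TSSs overlap each other. With 1 TSS per cluster, the counts for a match in tile 2 alone were 10 and 14 of 50 for ETS, 3 and 5 of 11 for CREB/ATF, 0 and 7 of 18 for YY1, and 3 and 6 of 34 for AP-1, all small.

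The POU octamer had few matches, with 6 and 0 calls of 16 and then 1 and 4 of 18. SP/KLF matches in tile 1 alone went with 172 and 37 calls of 386, but in tile 2 alone with 66 and 31 of 240, so that tile 1 was still called more often. CCAAT matches gave 105 and 24 of 321 in tile 1 alone and 58 and 51 of 288 in tile 2 alone. A TATA box match made little difference to the counts, which were 20 and 3 of 90 in tile 1 and 18 and 6 of 87 in tile 2. For NRF1 the counts were 19 and 4 of 39 and then 7 and 7 of 23. They were 28 and 13 of 86 and then 17 and 8 of 62 for the E-box.

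The position of a match within the tile was followed for TSSs with a single match over both tiles. For ETS, the median log2 ratio was -0.25 for the 70 TSSs with the match in the part that only tile 2 covers. It was 0.98 for the 11 with the match in the shared 30 bp, where each tile holds it. It was 2.09 for the 52 TSSs with the match between 84 bp and 41 bp before the TSS, 1.09 for the 52 with it in the 40 bp before the TSS and 1.51 for the 15 with it downstream. YY1 matches lay mostly downstream of the TSS when in tile 1, at 22 TSSs, 15 of them called for tile 1 and 2 for tile 2. CREB/ATF matches lay mostly between 84 bp and 41 bp before it, at 19 TSSs, 14 of them called for tile 1 and 0 for tile 2. TATA box matches in the 40 bp before the TSS, which is where a TATA box works, were at 47 TSSs, with 16 calls for tile 1 and 1 for tile 2, and a median ratio of 0.47.

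Among gene groups chosen by name, all 5 measured ribosomal protein genes were called for tile 1, where 27.0% of all human TSSs were called for tile 1 and 8.59% for tile 2. *RPL22L1*, a paralog of *RPL22*, had 38.0, 39.2 and 41.5 in tile 1 and 0.975, 1.32 and 1.22 in tile 2, so that its tiles did not overlap. Its log2 ratio was 5.08 ± 0.15 (SE), and those of *RPL34*, *RPL21* and *RPLP0* were 3.29 ± 0.14, 3.05 ± 0.12 and 2.69 ± 0.12. *RPLP0* and *RPL41* had upstream tiles above the 95th percentile of random sequences as well. That of *RPLP0* had 3.10, 3.47 and 3.40 against 19.9, 21.01 and 23.4 in tile 1. *RPL41* had 18.0, 17.6 and 20.1 in tile 1 and 6.86, 9.69 and 9.52 in tile 2 (log2 ratio 1.10 ± 0.14, SE). Without passage 1 its ratio was 0.97, under the 2-fold limit. Of 12 TSSs of genes named as mitochondrial ribosomal or respiratory chain genes, which by name also include *NDUFB2-AS1*, *COX10-DT* and *MRPS30-DT*, 10 were called for tile 1 and 1 for tile 2, beside the same shares of all TSSs. *MRPL3*, of the large mitochondrial ribosomal subunit, was the latter, with a log2 ratio of -3.51. With 1 TSS per cluster, the counts of this group were 7 and 1 of 9.

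The 42 TSSs of 19 host genes of small RNAs had a median log2 ratio of 0.04 and were called in both directions, 11 for tile 1 and 8 for tile 2, where 27.0% and 8.59% of all human TSSs were called. Several of these TSSs overlap, 3 of the 8 at *MIR4435-2HG*, and with 1 TSS per cluster the counts were 7 and 1 of 18. *SNHG11* had a mean activity of 15.7 ± 1.28 (SD, n = 3) in tile 1 and 1.11 ± 0.0704 in tile 2, *MIR130AHG* 13.5 ± 1.42 and 1.70 ± 0.196, *SNHG21* 10.4 ± 1.20 and 1.53 ± 0.352, and *MIR9-1HG* 9.98 ± 0.408 and 1.23 ± 0.0798. In the other direction, the called TSS of *SNHG30* had 1.16 ± 0.129 and 9.15 ± 0.845, *MIRLET7A1HG* 2.06 ± 0.897 and 16.1 ± 1.94, and *SNHG18* 1.36 ± 0.225 and 3.12 ± 0.415. Overlapping TSSs of *SNHG30* were active in both tiles and not called, with 8.19 and 10.3 and with 6.83 and 9.93. *MIR222HG*, *MIR155HG* and *MIR142HG* had smaller log2 ratios of 1.78, 1.68 and 1.26. The TSS matched to *MIR142HG* lies 773 bp from the gene's start, is listed as an enhancer RNA and overlaps none of its exons or introns, and that of *MIR9-1HG* lies 587 bp away. *MIR124-1HG* had 3.66 ± 0.401 and 1.81 ± 0.205, a log2 ratio of 1.01 that was 0.95 without passage 2 and -0.19, not called, in the fit on barcodes. *MIR142HG* and *SNHG18* were not called in that fit either. LINC genes had 31 and 9 calls of 110 TSSs, antisense-named lncRNAs 67 and 23 of 244 and zinc finger genes 4 and 0 of 14, each of which is near the shares of all TSSs for tile 1.

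Of 31 pluripotency genes, 3 had a TSS with both tiles measured. *OTX2*, a homeobox factor of primed pluripotency and the early forebrain, was called, with 3.64, 3.78 and 3.95 in tile 1 and 1.12, 1.17 and 1.28 in tile 2 (log2 ratio 1.67 ± 0.11, SE). *LIN28B* had a log2 ratio of -0.42 and *GDF3* of 0.22, and neither was called. Where the matched gene was listed at 0 by RNA-seq in untransfected hESCs, 29 and 8 of 163 TSSs were called. *SEC22B* is among the genes listed at 0, and whether such genes are unexpressed was not tested. The counts were 170 and 54 of 566 up to 1 cpm, 89 and 29 of 282 from 1 to 10 cpm, 187 and 51 of 443 from 10 to 100 cpm and 58 and 17 of 163 above 100 cpm, so that the share called for tile 1 was largest between 10 and 100 cpm.

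In mESCs, the same human TSSs had a median log2 ratio of 0.22, tile 1 was the higher tile at 61.9% of them, and 564 and 206 were called, where 23.1% and 7.8% of all 5233 TSSs were called in mESCs. Mouse TSSs in hESCs had a median of 0.37 and the higher tile 1 at 66.8%. Values in both cell types share the DNA counts of the plasmid library, and the species, line, medium and transfection procedure cannot be told apart. The MIR3677HG tiles had mean activities of 1.09 ± 0.272 and 21.2 ± 4.46 (SD, n = 3) in mESCs, and those of *RANBP6* 28.5 ± 6.84 and 1.01 ± 0.188. The direction was the same in both cell types at all 43 named TSSs. Most of them were named for a large ratio or a call in hESCs, and no share over all TSSs stands beside this count, so it is no result. The difference between cell types was tested as an interaction of tile and cell type in edgeR. It had an adjusted p under 0.05 at 536 of the 2608 human TSSs, and the share over all 5233 TSSs is not given here. Of the 536, 345 were called in hESCs, where 928 of all 2608 were called. A large ratio in hESCs favours such a difference, so this count is no result. *OTX2* was among the 536, with 1.76 ± 0.0649 and 1.13 ± 0.114 in mESCs, and so was *BCAR3-AS1*, with 3.30 ± 0.493 and 0.670 ± 0.0659.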

How the data were processed

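The authors trimmed reads with cutadapt, required exact barcode matches and deposited raw counts per barcode, without molecular identifiers, so reads are not independent molecules. The interval printed is binomial over TSSs. For cutadapt and HISAT2, versions were not given in the sources used here. For RNA-seq, the authors deposited raw gene counts from featureCounts 2.0.0, of which the 3 untransfected hESC libraries were used as cpm and the others were not used. Of the barcodes counted, 58627 were not in the index and were left out. Sequences equal hg19 (compared with GRCh37) for 6954 of 6956 human sequences.

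Barcodes with under 10 DNA counts were dropped, as were sequences with under 50% of their barcodes. Tiles were compared with edgeR 4.0.16 (R 4.3.3), with the log DNA count and the median random sequence as offsets, human and mouse TSSs together. The study's MPRAnalyze was not used. Alternatives used DESeq2 1.42.0 and limma 3.58.1. SEs are the log2 ratio over the root of its F statistic, and p-values measure the spread between passages of 1 line. TSSs took the gene of the nearest same-strand GENCODE v44lift37 start within 1000 bp, which gave 1671 TSSs of 1353 genes. The study's list of RNA kinds was held in part. The edgeR test was also run on simulated data, with means and dispersions taken from the real data.

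Tile 1 and tile 2 of a passage come from the same libraries. Their deviations from the tile means correlated at only 0.031, 0.017 and 0.027. Named were the 10 TSSs of different genes with the largest ratio in each direction, called in the passage and the barcode fit, with at least 10 barcodes per tile and passages not overlapping, called members of the pluripotency, ribosomal protein and host gene groups, and *SEC22B* and *BCAR3-AS1*. *LIN28B*, *GDF3* and *MRPL3* were named after their values were seen. Members and lists were chosen with earlier results of these data known.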

Additional observations from a re-analysis of the deposited data

Results flagged for a closer look

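Over the 9 hESC transfections, 45 results were looked at for a sample far from the others, and chance alone marks about 1 in 20. 3 were marked. The log2 ratio of *SNHG30* was -2.21 in transfection 1 of passage 1, where the others ran from -3.33 to -2.88. That of *MIR9-1HG* was 4.40 in transfection 3 of passage 1, against 2.43 to 3.43, and that of the second *MIR205HG* TSS was -4.92 in the same library, against -3.03 to -1.35.

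At 21 of the 43 named TSSs the tile effect differed between cell types (interaction in edgeR, adjusted p under 0.05), and all 21 kept their direction. Values are the log2 ratio of tile 1 to tile 2 in mESCs minus that in hESCs. Most of these TSSs were named for a large ratio or a call in hESCs. That favours a smaller effect in mESCs, so the balance of 16 smaller to 5 larger effects is no result. A kept direction is likewise favoured and is no result either. Of the smaller effects with the higher tile 1, the difference was -2.24 and -2.20 at the *MIR4435-2HG* TSSs, -1.82 at *BCAR3-AS1*, -1.63 at *LNCTAM34A*, -1.04 at *OTX2*, -0.996 at *DPH5*, -0.997 at *MIR155HG*, -0.75 at *UXT* and -0.63 at *MIR142HG*. Of those with the higher tile 2, it was 3.10, 1.55 and 1.38 at the other *MIR4435-2HG* TSSs, 1.77 at *OLMALINC*, 1.06 at *MIR205HG*, 1.00 at *MCMBP* and 0.78 at *PPP1R8*. The effect was larger in mESCs at 5, by 0.99 at *MIR222HG* and 0.80 at *MIR9-1HG* for tile 1, with -1.86 at *MIRLET7A1HG*, -0.88 at *LINC02427* and -0.86 at *SNHG30* for tile 2.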

How the results depend on the processing

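The counts of 704 and 224 called TSSs stayed within 1.5 times under DESeq2, limma, the spread between barcodes, TMM or DESeq2 scaling, all 9 transfections, other barcode filters and 1 TSS per cluster. They were 692 to 707 and 215 to 227 when 1 passage was left out, and 705 and 225 with the passage as a block, that is with the tiles paired. Among TSSs with GC within 5 percentage points they were 342 and 116, with fewer TSSs tested, and without the fold threshold 1224 and 505. The median log2 ratio was 0.29 with at least 1 DNA count, 0.29 with at least 80% of barcodes, 0.35 with 1 TSS per cluster, 0.28 with GC matched, 0.36 with the median over barcodes and 0.31 to 0.33 without 1 passage. The percent of TSSs with the higher tile 1 was 62.4 with at least 1 DNA count, 65.5 with 1 TSS per cluster, 63.0 with GC matched and 63.8 to 65.1 without 1 passage. Of 645 values of the named TSSs under these alternatives, 640 kept their call and direction. Most of these TSSs were named for their calls, many of them in the barcode fit too. A TSS that a filter removed has no value among the 645, so this count is no test of robustness. In the barcode fit, *MIR124-1HG* reversed to -0.19 and *MIR142HG* and *SNHG18* lost their calls; the cause was not tested. Depth was high, and the number of passages and of barcodes limits the precision.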
